A study of Caenorhabditis elegans with 6 samples.

Results

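The HSP70 and HSP90 chaperones of the cytosol and the endoplasmic reticulum (ER) of Caenorhabditis elegans were followed through 7 genes: hsp-1, hsp-70, hsp-110, hsp-90, hsp-3, hsp-4 and enpl-1. They were chosen by gene name from the 46934 rows of the deposited table, and all 7 were found and passed the filter on low counts. The 6 libraries came from pools of whole worms of the strain CL2006, in which the promoter of unc-54, a body wall muscle myosin gene, drives human amyloid-β (unc-54p::Abeta). All worms ate EV (empty vector) bacteria at 20 °C up to the L4 larval stage. From then until harvest on day 6 of adulthood, 3 pools stayed on EV bacteria (EV control) and 3 were fed nol-56 RNAi bacteria. The transgene was present in every pool, controls included, so the comparison shows the RNAi in worms that make amyloid-β and says nothing of worms without it. The labels do not say whether the pools were separate cultures; p-values measure the spread between these pools, which may be technical.

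HSP70 proteins bind exposed hydrophobic stretches of unfolded proteins in a cycle of ATP binding and hydrolysis, started by J-domain partners and reset by nucleotide exchange factors. HSP90 proteins act later, on partly folded clients such as kinases and receptors, with the help of co-chaperones that carry clients over from HSP70. In the cytosol of C. elegans, hsp-1 encodes the constitutive HSP70, hsp-70 a heat-inducible HSP70, hsp-110 an HSP70 relative that serves as nucleotide exchange factor, and hsp-90 (also known as daf-21) the HSP90. In the ER, hsp-3 and hsp-4 encode the pair of BiP homologs, of which hsp-4 is the widely used reporter of the unfolded protein response, and enpl-1 encodes the HSP90 relative endoplasmin.

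Total counts were 21138955 to 34841215 per library. The targeted transcript nol-56 was at 253 to 270.2 CPM (read counts scaled to a common library total) in EV control and 15.7 to 20.8 CPM in nol-56 RNAi libraries, so it followed the labels in all of them. Marker transcripts moved with the groups, in libraries where 40.8% of the 14677 genes tested were called lower and 47.2% higher. All 18 germline markers were lower in nol-56 RNAi, with a summed level of 10466 to 11462 CPM in EV control and 4912 to 5184 CPM in nol-56 RNAi, among them htp-3 (log2 fold change −2.05) and glh-2 (−1.51). All 12 body wall muscle markers were higher (summed level 3743 to 4029 against 7291 to 7337 CPM), as were all 12 neuron markers (598 to 626 against 1218 to 1250.1 CPM) and all 11 intestine markers tested (2475 to 2703 against 4453 to 4500.1 CPM). No marker in the table was at 0 in any library. In whole worms, fewer cells of a type and less RNA per cell cannot be told apart, and the part that tissue make-up has in the values below was not tested.

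With TMM factors, fold changes were larger for the cytosolic chaperone transcripts than for those of the ER. In nol-56 RNAi, hsp-1, hsp-110 and hsp-90 were 1.61-fold to 2.03-fold lower, whereas hsp-70, by far the least abundant, was 1.79-fold higher. The ER genes moved less: hsp-4 was 1.28-fold lower, enpl-1 1.11-fold lower and hsp-3 9.82% higher. The small changes of enpl-1 and hsp-3 depend on how libraries are scaled. With upper-quartile factors the log2 fold change of hsp-3 (0.38) came near that of hsp-90 (−0.44) in size. Relative to the median of all genes with TMM factors, hsp-4 stood at −0.52. In edgeR's quasi-likelihood test 5 of the 7 genes were called lower and 2 higher at an adjusted p under 0.05, where 40.8% and 47.2% of the 14677 genes tested were called lower and higher. The groups did not overlap for any of the 7, as for 88.0% of all genes. With so large a share of the transcriptome called, a call by itself says little about a gene, and the sizes below carry the description. The median log2 fold change was −0.36 for the 7 genes and 0.16 for all genes tested.

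**Figure D1:**
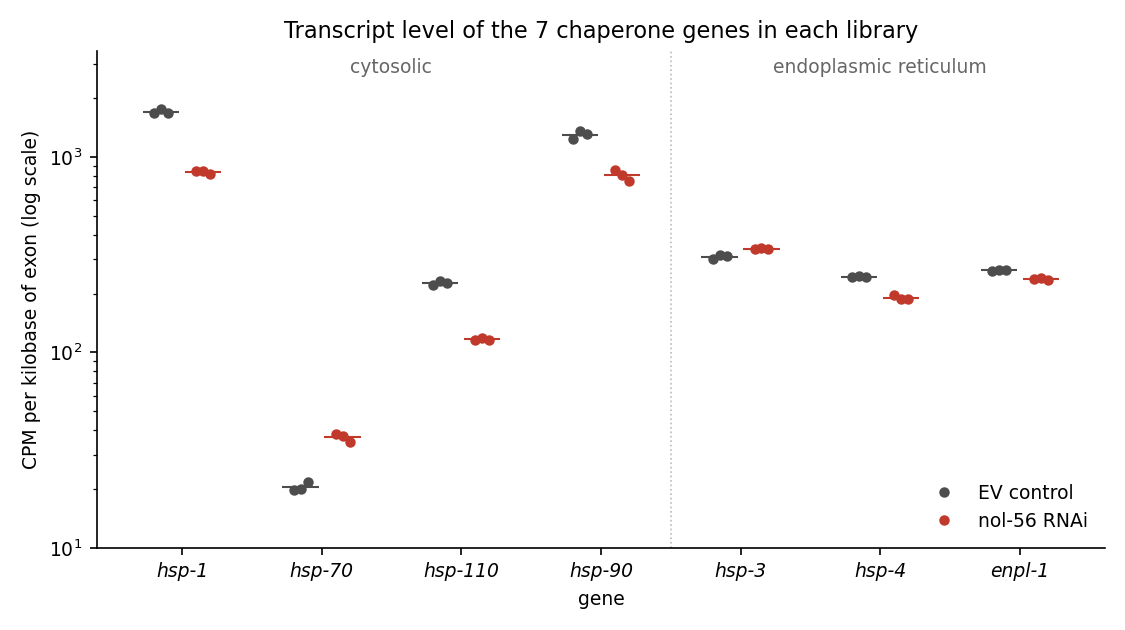
Level of each chaperone gene in CPM per kilobase of exon (log scale), with 1 point per library (grey, EV control; red, nol-56 RNAi; n = 3 each) and a line at the group mean. hsp-1, hsp-110 and hsp-90 sit lower and hsp-70 higher in all nol-56 RNAi libraries, while the ER genes shift by less on this TMM scale.

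The constitutive HSP70 gene hsp-1 (WBGene00002005) lies on the plus strand of chromosome IV, 17278959 to 17281330 in WBcel235. Its level was 3471, 3639.8 and 3493 CPM in EV control libraries 1 to 3 and 1758, 1752 and 1704 CPM in nol-56 RNAi libraries 1 to 3. Every control library was thus far above every RNAi library, and the spread within each group was small. The mean went from 3535 ± 91.9 to 1738 ± 29.6 CPM (SD, n = 3 per group), or −1.02 on the log2 scale (standard error, SE, 0.04; adjusted p = 2.13e-15). With TMM factors this was the only one of the 7 genes to fall at least 2-fold, which 12.4% of all genes did; with RLE factors hsp-110 did so too (−1.10), and with library totals (−0.93), genes above 5 CPM alone (−0.88) or upper-quartile factors (−0.78) hsp-1 itself did not. An intron of hsp-1 holds the small nucleolar RNA gene F26D10.24 (chromosome IV, 17280046 to 17280169, same strand), which shares no exon base with it and was not analysed here.

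The exchange factor gene hsp-110 (WBGene00016250; chromosome III, 8443910 to 8446909, minus strand) was close to hsp-1 in its change. Its level was 598, 629.9 and 616 CPM in EV control and 314, 319 and 312 CPM in nol-56 RNAi libraries. The RNAi libraries lay close together and well under the controls. The mean went from 615 ± 15.97 to 315 ± 3.71 CPM (log2 fold change −0.96, SE 0.04, adjusted p = 1.26e-15). No annotated gene overlaps hsp-110.

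The cytosolic HSP90 gene hsp-90 (WBGene00000915; chromosome V, 14684918 to 14688545, plus strand) had a level of 2922, 3208 and 3090.45 CPM in EV control and 2027, 1912 and 1779.7 CPM in nol-56 RNAi libraries. It was lower in every RNAi library, with the widest relative spread of the 7 genes in that group, a coefficient of variation of 6.49%. The mean went from 3074 ± 144 to 1906 ± 124 CPM (log2 fold change −0.69, SE 0.05, adjusted p = 2.97e-11). It shares 4 exon bases with C47E8.4 on the opposite strand, which had 1200 to 2324 counts per library against 38518 to 107214 for hsp-90.

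The inducible HSP70 gene hsp-70 (WBGene00002026; chromosome I, 9320325 to 9322519, minus strand) went the other way. Its level was 40.6, 41.2 and 44.6 CPM in EV control and 78.3, 76.4 and 71.9 CPM in nol-56 RNAi libraries, from raw counts of 942 to 1393 and 1556 to 1948. All RNAi libraries were above all controls by at least 27.3 CPM. The mean went from 42.1 ± 2.14 to 75.5 ± 3.30 CPM (log2 fold change 0.84, SE 0.05, adjusted p = 5.00e-13). Larger log2 fold changes than that of hsp-70 are common in these libraries, since it stands at the 68.2 percentile of all genes tested. The gene lies inside uggt-2 on the opposite strand, sharing no exon base with it, and uggt-2 had 53 to 90 counts per library.

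In the ER, hsp-4 (WBGene00002008; chromosome II, 7350112 to 7352645, minus strand) had a level of 540.4, 549 and 545 CPM in EV control and 438, 418 and 421 CPM in nol-56 RNAi libraries. The controls were nearly identical and all above the RNAi libraries. The mean went from 545 ± 4.22 to 426 ± 10.96 CPM (log2 fold change −0.36, SE 0.04, adjusted p = 2.93e-08). The unfolded protein response reporter gene was therefore lower, and not higher, in nol-56 RNAi, under each of the scalings and tests run.

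Its paralog hsp-3 (WBGene00002007; chromosome X, 6089028 to 6092124, minus strand) had a level of 805, 837 and 832 CPM in EV control and 898, 913 and 906 CPM in nol-56 RNAi libraries. On this scale the RNAi libraries were all slightly higher, with means of 825 ± 17.3 and 906 ± 7.47 CPM (log2 fold change 0.14, SE 0.04, adjusted p = 0.00393). That difference is that of the median gene, since relative to the median of all genes hsp-3 stood at −0.02. With RLE factors its log2 fold change was −0.0027 (adjusted p = 0.952), and in the authors' deposited table its normalized values were 22436 to 22754 in EV control and 21949.7 to 22411 in nol-56 RNAi libraries, the RNAi group being just under the control group. No annotated gene overlaps hsp-3 or hsp-4.

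The endoplasmin gene enpl-1 (WBGene00011480; chromosome IV, 11119298 to 11123155, plus strand) had a level of 689.5, 702 and 701 CPM in EV control and 634, 636 and 621 CPM in nol-56 RNAi libraries. The groups were separate but only 53.1 CPM apart at their nearest. The mean went from 697 ± 6.74 to 630.4 ± 8.45 CPM (log2 fold change −0.15, SE 0.04, adjusted p = 0.00184), whereas with upper-quartile factors enpl-1 was called higher (0.10, adjusted p = 0.0180). Its exons share 23 bases with spo-11 on the opposite strand, which had 568 to 1543 counts per library against 13434 to 23451 for enpl-1. No source used here says whether counting respected strand, so reads from such shared bases may belong to either gene.

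**Figure D2:**
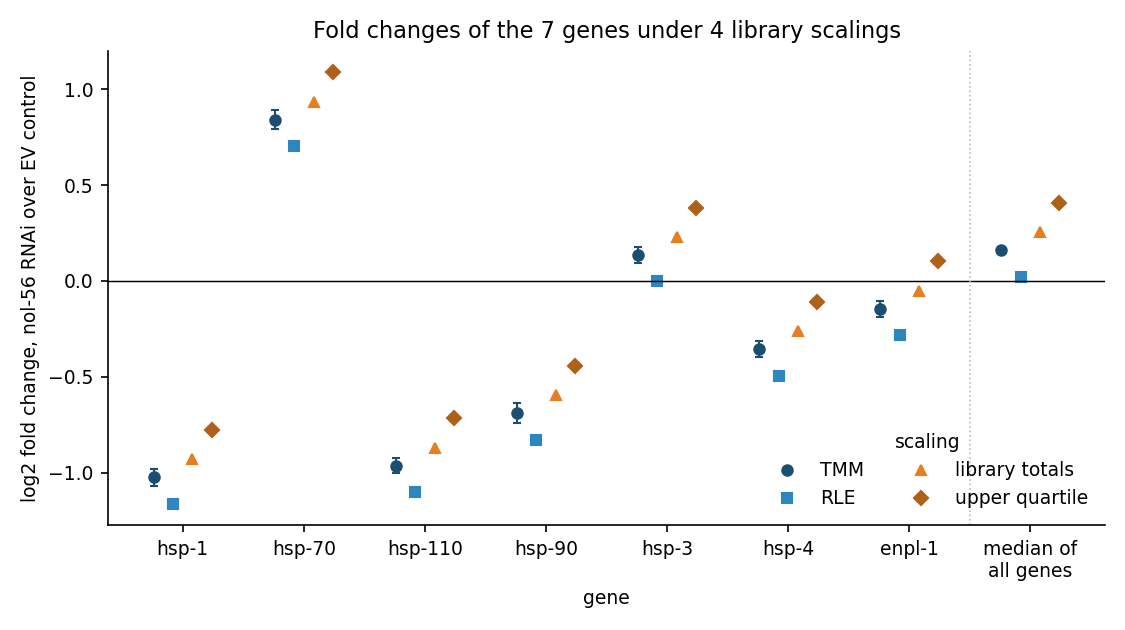
Log2 fold change of each gene, nol-56 RNAi over EV control, under 4 library scalings, with the median of all genes at the right; bars on the TMM points are ± 1 SE. A scaling shifts all genes together, so hsp-1, hsp-110, hsp-90 and hsp-4 stay below 0 and hsp-70 above 0 under these 4, while hsp-3 (0.14 with TMM, −0.0027 with RLE) and enpl-1 (−0.15 with TMM, 0.10 with upper-quartile factors) cross it.

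The choice of scaling shifts every gene alike. Over all genes tested the median log2 fold change was 0.16 with TMM factors, 0.02 with RLE factors, 0.25 with library totals and 0.41 with upper-quartile factors, and the share of called genes that were higher was 53.6%, 49.6%, 56.6% and 62.4%. Relative to the median of all genes with TMM, hsp-1 stood at −1.18, hsp-110 at −1.12, hsp-90 at −0.85, hsp-4 at −0.52 and enpl-1 at −0.31, and hsp-70 at 0.68. The yolk protein gene vit-6, which had the most counts, took 2.61% to 2.69% of all counts in EV control and 6.37% to 7.23% in nol-56 RNAi libraries. Leaving the 20 most counted genes out of the scaling moved the median of all genes by 0.0051. TMM factors already trim genes with extreme levels or ratios, so this small move cannot decide between scalings.

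Per length, hsp-1 and hsp-90 stood far above the other 5 genes in both groups. In EV control, hsp-1 was at 1705 ± 44.3 CPM per kilobase of exon, rank 34 among the 14677 genes tested, and hsp-90 at 1303 ± 61.0, rank 74. Next in order were hsp-3 (309 ± 6.49), enpl-1 (263 ± 2.54), hsp-4 (244 ± 1.89), hsp-110 (227 ± 5.91) and hsp-70 (20.5 ± 1.04 CPM per kilobase), and no neighbours in this order overlapped between libraries. In nol-56 RNAi the order of the means was the same, but hsp-1 (839 ± 14.3, rank 119) and hsp-90 (808 ± 52.4, rank 125) overlapped: their libraries ranged from 822 to 848 and from 754 to 859 CPM per kilobase. The gap between hsp-1 and hsp-90, 1.31-fold in EV control, was thus no longer larger than the spread between libraries. At the lower end, hsp-110 was 11.1-fold above hsp-70 per length in EV control and 3.18-fold above it in nol-56 RNAi.

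Taking the genes by compartment, the 4 cytosolic genes held 0.677%, 0.721% and 0.711% of all counts in EV control and 0.435%, 0.419% and 0.396% in nol-56 RNAi libraries. The 3 ER genes held 0.196%, 0.200% and 0.204% and then 0.205%, 0.203% and 0.199%, so these ranges overlap. On the TMM scale the summed level of the ER genes was 2035 to 2088 CPM in EV control and 1948 to 1970.02 CPM in nol-56 RNAi libraries, and there the groups did not overlap. Of the summed CPM per kilobase of the 7 genes, hsp-1 made up 41.9 ± 0.423% in EV control against 32.7 ± 0.416% in nol-56 RNAi, hsp-90 made up 32.0 ± 0.606% and 31.4 ± 1.16%, and the ER genes together 20.1 ± 0.344% and 29.9 ± 0.666%. The share of hsp-3 went from 7.60 ± 0.0970% to 13.2 ± 0.434%, and that of hsp-70 from 0.503 ± 0.0279% to 1.43 ± 0.0226%. These shares add up to a whole, so the share of a gene can rise when others fall.

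**Figure D3:**
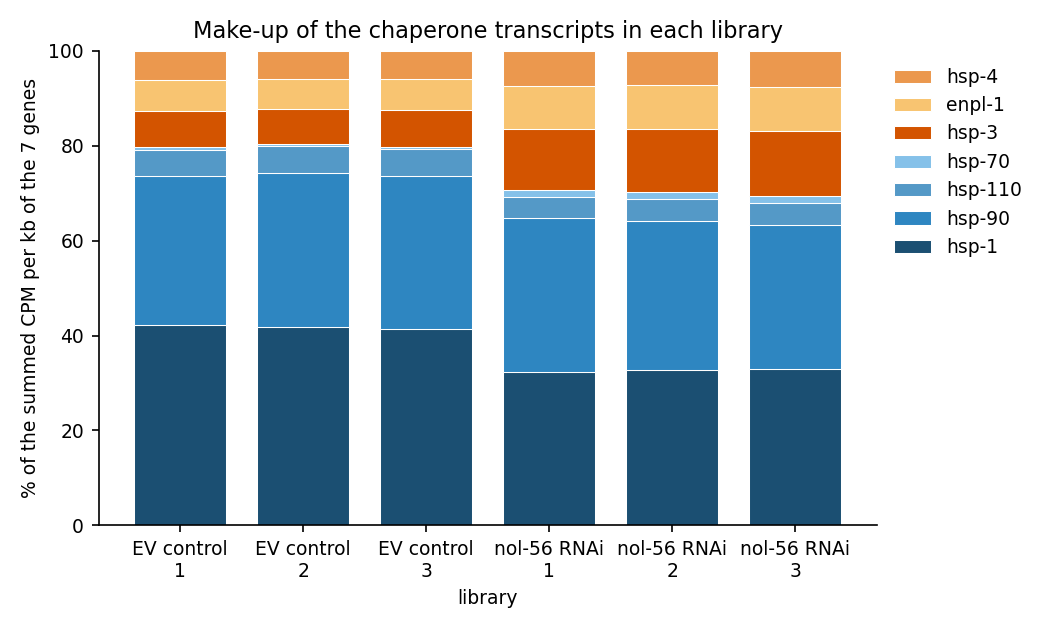
Share of each gene (blue, cytosolic; orange, ER) in the summed CPM per kilobase of the 7 genes, 1 bar per library. hsp-1 fills 41.9% on average in EV control against 32.7% in nol-56 RNAi, and the ER genes 20.1% and 29.9%.

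Ratios within a library need no scaling between libraries, and 4 were compared. The level of hsp-4 per length was 0.802, 0.783 and 0.782 times that of hsp-3 in EV control and 0.583, 0.546 and 0.555 times in nol-56 RNAi libraries. The balance of the BiP pair was therefore shifted toward hsp-3 in every RNAi library, by −0.49 ± 0.03 (SE) on the log2 scale. For hsp-70 over hsp-1 the ratio was 0.0118, 0.0114 and 0.0129 in EV control and 0.0449, 0.0440 and 0.0425 in nol-56 RNAi libraries, a 3.64-fold larger ratio, though hsp-70 remained a minor part of the pair. For hsp-110 over hsp-1 the ratio was 0.132, 0.133 and 0.135 and then 0.137, 0.140 and 0.141, so the exchange factor and its HSP70 partner kept nearly the same proportion, with a difference of 0.06 ± 0.01 (SE) on the log2 scale. For enpl-1 over hsp-90 it was 0.210, 0.194 and 0.202 and then 0.278, 0.296 and 0.310, a 1.46-fold larger ratio. In all 4 pairs the groups did not overlap, and the exact two-sided permutation test gave p = 0.1 for each, also after adjustment over the 4, which is the smallest p that 3 against 3 libraries allow.

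**Figure D4:**
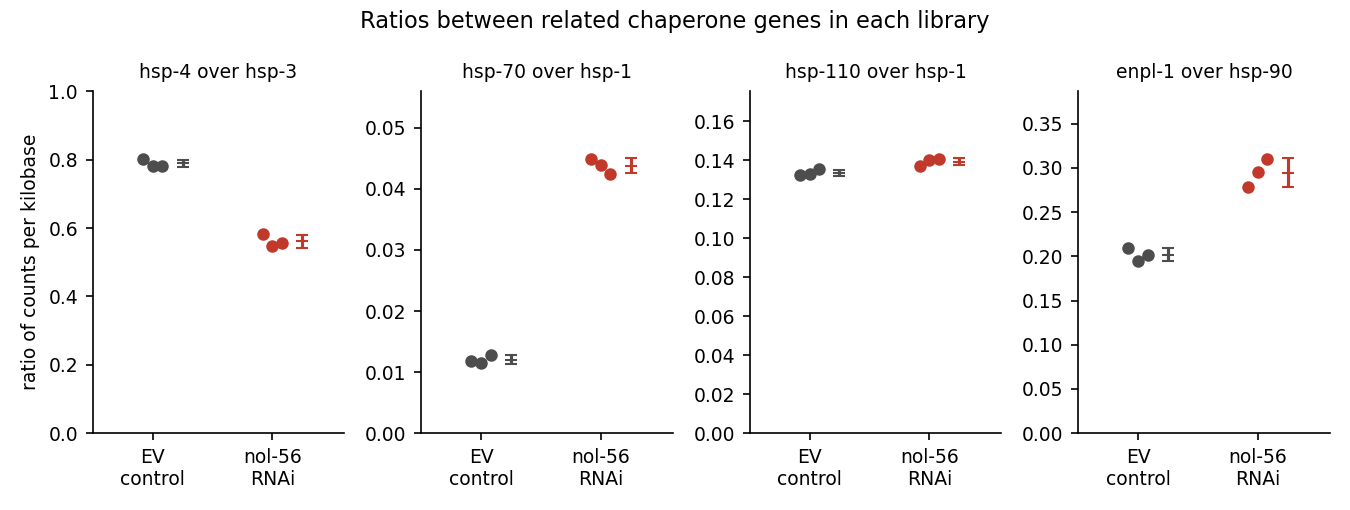
Ratio of counts per kilobase between related chaperone genes in each library (points), with the mean ± SD of each group beside them (n = 3; axes start at 0). hsp-4 over hsp-3 is lower in nol-56 RNAi, hsp-70 over hsp-1 and enpl-1 over hsp-90 are higher, and hsp-110 over hsp-1 is nearly level.

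Among co-chaperones of cytosolic HSP70 and HSP90, 14 of 15 were called lower and 1 higher, beside 40.8% and 47.2% of all genes tested. Their median log2 fold change was −0.61 beside 0.16 for all genes. The largest falls with the smallest p were those of hip-1, the homolog of an HSP70-interacting protein, from 374 ± 10.1 to 144 ± 7.41 CPM (−1.37), and of the immunophilin gene fkb-6, from 288 ± 5.23 to 122 ± 2.58 CPM (−1.24). The p23 gene daf-41, whose product binds HSP90, fell by 1.08 on the log2 scale, as did sti-1, whose product links HSP70 and HSP90. The 1 that rose, named after its values were seen, was the BAG-domain gene unc-23 (1.11). With upper-quartile factors 12 of these 15 were lower and 1 higher. Germline markers fell in the same libraries (median −1.12) and muscle markers rose (median 0.95), and their part in these values was not tested.

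The transcript of the heat shock factor hsf-1, which activates many chaperone genes, fell from 167 ± 12.8 to 91.7 ± 2.69 CPM (−0.86, adjusted p = 2.29e-13). ddl-1 (−1.43) and ddl-2 (−0.74), whose products bind HSF-1 in an inhibitory complex in C. elegans, fell as well, and hsf-2, at 1.31 CPM in EV control, rose (0.72). In this list of 5, 4 were lower and 1 higher, beside 40.8% and 47.2% of all genes tested. With upper-quartile factors or library totals 3 were lower and 1 higher. The call of hsb-1 (−0.22), named after its values were seen, was lost with upper-quartile factors (0.02, adjusted p = 0.713), library totals (adjusted p = 0.0602) and genes above 5 CPM alone (adjusted p = 0.255), a filter that hsf-2 did not pass. Of 6 heat-inducible hsp-16 genes, only 3 had enough reads to be tested. They were called higher, beside 47.2% of all genes tested: hsp-16.2 (0.72), hsp-16.11 (0.86) and hsp-16.41 (0.35). They stood at the 63.7, 68.7 and 54.4 percentile of all genes tested, so larger log2 fold changes were common. The groups of hsp-16.41 were only 0.354 CPM apart at their nearest. The other 3 had 0 or 1 read per group; some hsp-16 genes are near-identical to each other, which makes their single values uncertain.

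Other members of the superfamily were listed beside the 7. The mitochondrial HSP70 gene hsp-6 fell from 839.9 ± 19.4 to 229.5 ± 3.07 CPM (−1.87), and hsp-75, a relative of the mitochondrial HSP90 TRAP1, from 148 ± 4.15 to 80.8 ± 1.71 CPM (−0.88). stc-1, described in the deposited table as a heat shock protein, stood at 0.19 (adjusted p = 0.00144). F44E5.4 (1.29) and F44E5.5 (1.64) rose from 17 to 43 reads per EV control library to 52 to 95 per nol-56 RNAi library, and are uncertain because they are near-identical neighbours. T24H7.2 (−0.09, adjusted p = 0.0375) and T14G8.3 (0.12, adjusted p = 0.00823) changed little, and both are given as uncharacterized in the deposited table. T24H7.2 was not called with library totals (adjusted p = 0.902) and was called higher with upper-quartile factors (0.16, adjusted p = 0.000428). With RLE factors the calls of T14G8.3 (−0.01, adjusted p = 0.778) and stc-1 (0.06, adjusted p = 0.344) were lost. F11F1.1 (1.08) was also in the list by its sequence name, but the deposited table describes it as a DUF148 domain protein. Of these 8 genes 5 were called higher and 3 lower with TMM, beside 47.2% and 40.8% of all genes tested. With RLE factors 3 were called higher and 3 lower.

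The ER partners of hsp-3, hsp-4 and enpl-1 were mixed. Of 13 such genes 8 were lower, 2 higher and 3 not called, beside 40.8% lower and 47.2% higher among all genes tested. Their median was −0.26 beside 0.16 for all genes, and with upper-quartile factors 5 were lower and 6 higher. The J-domain gene dnj-20 rose from 304 ± 3.94 to 502 ± 31.4 CPM (0.72), while the calnexin gene cnx-1 (−0.80), the disulfide isomerase gene pdi-1 (−0.71) and the J-domain gene dnj-28 (−1.12) fell. Among the sensors and factors of the unfolded protein response, the kinase and nuclease gene ire-1 fell from 221 ± 5.74 to 131 ± 2.12 CPM (−0.75) and atf-6 fell (−0.35), whereas xbp-1, whose mRNA IRE-1 splices, rose from 286 ± 6.93 to 387 ± 7.004 CPM (0.44) and atf-4 rose from 28.9 ± 0.998 to 65.3 ± 4.54 CPM (1.17). Gene counts do not separate spliced from unspliced xbp-1. In this list of 5, 2 were higher and 3 lower, beside 47.2% and 40.8% of all genes tested. Its median of −0.19 became 0.06 with upper-quartile factors, where that of all genes was 0.41 in place of 0.16. These factors left ire-1 as the only one called lower. atf-6 was then at −0.10 (adjusted p = 0.0763). The kinase gene pek-1, named after its values were seen, went from −0.19 to 0.06 (adjusted p = 0.164). It passed the filter of 5 CPM, but its call was lost there too (−0.04, adjusted p = 0.322). All 8 genes of ER-associated degradation were called lower (median −0.57), beside 40.8% of all genes tested, and 6 were with upper-quartile factors. They were led by the AAA ATPase genes cdc-48.1 (−0.88) and cdc-48.2 (−0.80) and by their cofactor genes npl-4.2 (−0.67) and npl-4.1 (−0.71). The npl-4 genes are near-identical copies.

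**Figure D5:**
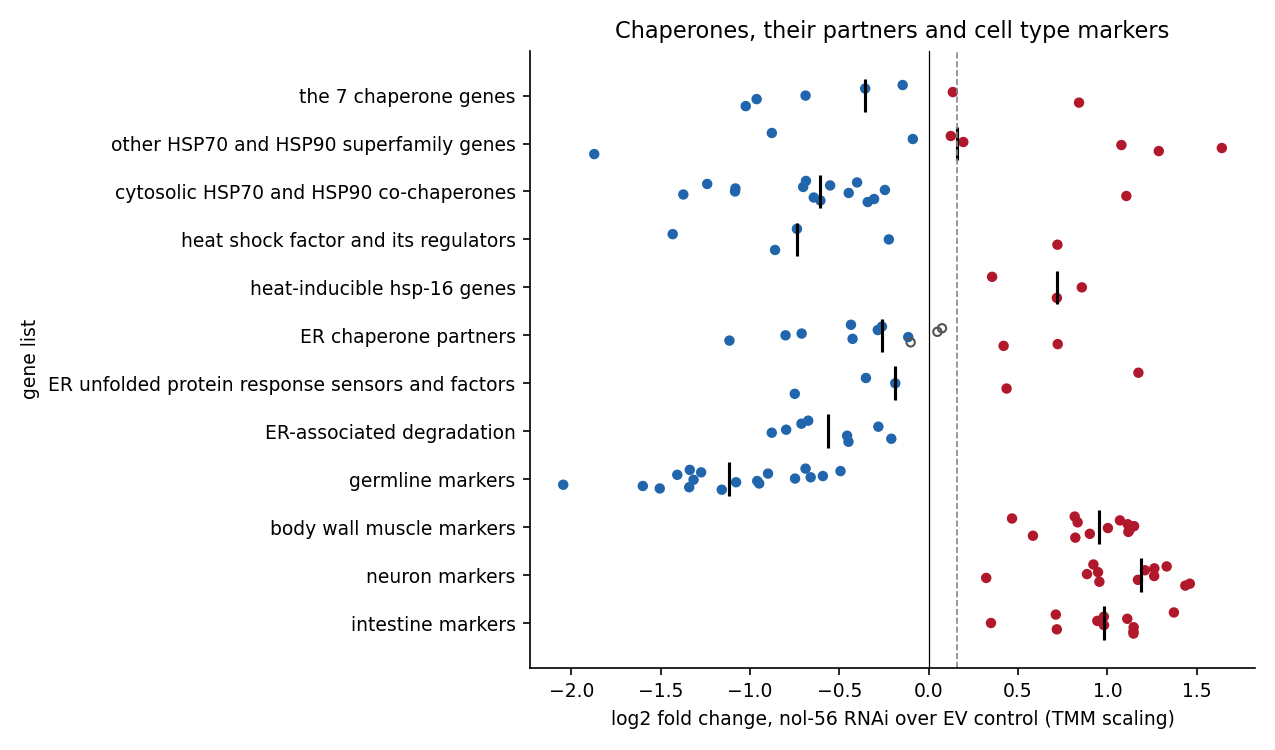
Log2 fold change (TMM scaling) of each tested gene in the chaperone set, in lists of partner genes and in lists of cell type markers; filled points passed an adjusted p of 0.05 (blue lower, red higher), open points did not, black bars are list medians and the dashed line is the median of all genes (0.16). Co-chaperones and ER-associated degradation genes lie mostly to the left with the germline markers, while markers of muscle, neurons and intestine lie to the right.

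Genes with the nearest profiles were sought over the 6 libraries among 8451 genes averaging 3 or more in log2 CPM, by the root-mean-square difference of centred log2 CPM. The nearest to hsp-1 were mars-1 (0.015) and lin-53 (0.015), to hsp-110 pfn-1 (0.015) and Y54H5A.1 (0.020), to hsp-90 pdi-1 (0.016) and T07F12.2 (0.020), and to hsp-70 atgp-1 (0.025) and mnr-1 (0.027). In the ER set the nearest to hsp-3 were vha-12 (0.017) and pak-1 (0.017), to hsp-4 K02B12.7 (0.014) and cogc-4 (0.014), and to enpl-1 C18E9.2 (0.015) and skr-1 (0.015). Such likeness is common with 6 libraries in 2 groups: between 546 and 1390 genes lay within 0.1 of each of the 7.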

How the data were processed

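The authors deposited raw counts of reads per gene, as whole numbers, and a normalized signal obtained from them with a single size factor for each library (0.832 to 1.23). Named without role or order in the submitters' processing notes are the build WBcel235, DESeq2 1.36.0, HTSeq 2.01, TopHat2 2.1.1 and cutadapt 2.10. Of 46934 rows, 22416 hold counts, and 22406 of these matched the Ensembl annotation of WBcel235, which gave positions and exon lengths. The normalized signal was printed for hsp-3 only.

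Counts were tested in R 4.3.3 with edgeR 4.0.16 and limma 3.58.1: filterByExpr defaults, TMM factors, quasi-likelihood fit with group as the only term, two-sided, Benjamini-Hochberg adjustment over all 14677 genes tested, threshold 0.05. The SE is the log2 fold change divided by the square root of F. CPM uses TMM-scaled library totals, and log2 CPM a prior count of 2. Ratios add 0.5 to each count. The edgeR test with TMM factors was checked on simulated counts in which few genes changed, as many up as down. In these libraries 88.0% of all genes were called, so that check does not bear on the choice of scaling. Chi-square tests over genes between libraries of a group gave 1.99 to 5.95 for each degree of freedom, above counting noise, so none was counted as a library deposited 2 times; this does not tell technical from biological replicates. At 21138955 to 34841215 counts per library, counting error is small for the 7 genes; PCR reads are not independent molecules.

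The members, lists and tests were chosen with earlier results of these data known. Named genes are the 7, nol-56, up to 4 genes per partner list with the smallest p (all 8 of the superfamily list), 2 per marker list and the 2 nearest profiles per gene. Named outside this rule were unc-23, hsb-1, pek-1, vit-6 and genes overlapping the 7. Of these, unc-23, hsb-1, pek-1 and vit-6 were named after their values were seen. 1 intestine marker, opt-2, was not analysed here. Alternatives were RLE and upper-quartile factors, library totals, a filter of CPM above 5 in 3 or more libraries, no filter, DESeq2 1.42.0, limma-voom, the replicate number as a block, the 20 most counted genes left out of the scaling, a prior count of 2 in the ratios, and each library left out. Sequences were not analysed here.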

Additional observations from a re-analysis of the deposited data

How the results depend on the processing

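hsp-1, hsp-110, hsp-90 and hsp-4 stayed lower and hsp-70 higher, each past the threshold, under all 15 alternatives run on the fit. hsp-3 stood at −0.0027 with RLE factors (adjusted p = 0.952) and at −0.0027 with DESeq2 (adjusted p = 0.947), so 1 member was then called higher. enpl-1 stood at −0.052 with library totals (adjusted p = 0.214), reached 0.10 under upper-quartile scaling (adjusted p = 0.0180) and was at 0.0012 with genes above 5 CPM alone (adjusted p = 0.977). Under that filter 4508 of all genes were higher, from 9931 tested. Other members moved alike. With RLE factors hsp-1 stood at −1.16 and hsp-110 at −1.10, from −1.02 and −0.96 with TMM factors. With genes above 5 CPM alone they stood at −0.88 and −0.82. hsp-3 and enpl-1 were near 0, so the shared shift took them across it. Why the scalings differ was not tested.

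Leaving out each library moved the log2 fold change of hsp-90 between −0.73 and −0.64, the widest range of those that fell, that of hsp-3 between 0.11 and 0.15 and that of enpl-1 between −0.16 and −0.13, with 2 members higher and 5 lower each time. All 4 ratios kept their direction without each library and with a prior count of 2.

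Same-numbered libraries had correlations of −0.10, 0.02 and −0.02 in their deviations from the group means. Libraries with different numbers had correlations of −0.16 to 0.15. With 3 libraries per group these values constrain one another, so they cannot decide whether the replicate numbers pair the libraries. With the replicate block, 6893 genes were higher and 5964 lower, with 2 and 5 of the members, and it changed no call on them.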
